A study of Mus musculus with 10 samples.

Results

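Start-site peaks are open-chromatin peaks that lie across the annotated transcription start of a gene. They were taken as the promoter peaks at distance 0 from a start in the annotation deposited by the authors, with a summed count of at least 100 over the 10 libraries. Of 61571 annotated nuclear peaks, 9144 lay on a start, and 8795 of these met the count rule, each for a different gene. The peaks nearest the limit held 100 counts inside it (67 peaks between 100 and 110) and 99 counts outside it (54 peaks between 90 and 99). The 8795 peaks make up 14.3% of the nuclear peaks, and 8355 of them belong to protein-coding genes.

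Chromatin accessibility had been measured by ATAC-seq, an assay in which a transposase inserts adapters into open DNA, in naive CD4 T cells. Spleen and lymph node cells had been sorted by surface markers, CD3+, CD4+, CD25- and CD44low/- among them. All 10 libraries, of 60000 cells each, came from mice of 1 genotype, Satb1fl/fl x CD4-CreERT2wt/+. It combines loxP-flanked Satb1 alleles with a Cre recombinase that tamoxifen switches on in cells expressing CD4. The 5 KO libraries (Sample_2268_KO to Sample_2272_KO) came from mice given tamoxifen, and the 5 WT libraries (Sample_2273_WT to Sample_2277_WT) from untreated mice. The WT mice therefore carried the floxed alleles and the Cre too, and the effect of deletion and that of tamoxifen itself cannot be told apart. The labels give no dose, age, sex or time after treatment, and do not say that each library came from another animal. The p-values thus measure the spread between these libraries, which may be technical. SATB1 is a chromatin organiser of T cells that binds AT-rich DNA, and the series addresses Il2 accessibility and IL-2 signalling as Th17 cells form.

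A transcription start is kept free of nucleosomes by transcription factors, chromatin remodellers and the polymerase itself. Most starts of broadly expressed genes lie in CpG islands, stretches rich in the dinucleotide CpG that tend to be accessible in every cell type. Starts of genes used in 1 lineage or after a stimulus are more often poor in CpG, may carry a TATA box, and depend more on enhancers and signals to open. Il2, which encodes the growth factor that T cells secrete once activated, has a start of the latter kind.

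The sequence just before the start is shown for 6 of the genes whose start-site peak differed between KO and WT, because they span both kinds of start. Each line gives 120 bases upstream of the RefSeq start (GRCm38.p6, the mm10 build), 5′ to 3′ on the strand of the gene, with every CpG in capitals.
Il2 (chr3:37125955-37126074, minus strand): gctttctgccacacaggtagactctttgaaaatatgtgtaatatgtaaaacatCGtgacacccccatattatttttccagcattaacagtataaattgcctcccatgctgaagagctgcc
Art2b (chr7:101581162-101581281, minus strand): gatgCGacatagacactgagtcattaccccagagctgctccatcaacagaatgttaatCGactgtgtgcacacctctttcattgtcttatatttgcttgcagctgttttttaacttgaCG
Ccr4 (chr9:114496545-114496664, minus strand): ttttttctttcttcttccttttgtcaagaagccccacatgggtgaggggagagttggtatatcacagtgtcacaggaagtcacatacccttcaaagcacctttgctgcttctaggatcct
Unc13b (chr4:43058833-43058952, plus strand): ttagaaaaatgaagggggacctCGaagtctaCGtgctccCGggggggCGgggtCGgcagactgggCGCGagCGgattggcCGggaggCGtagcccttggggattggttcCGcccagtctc
Rnf216 (chr5:143113021-143113140, minus strand): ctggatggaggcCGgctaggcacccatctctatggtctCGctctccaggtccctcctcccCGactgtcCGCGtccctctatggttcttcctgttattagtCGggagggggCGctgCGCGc
Yes1 (chr5:32611051-32611170, plus strand): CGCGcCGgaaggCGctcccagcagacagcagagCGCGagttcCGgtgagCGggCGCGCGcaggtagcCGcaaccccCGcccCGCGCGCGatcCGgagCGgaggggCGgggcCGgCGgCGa

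The Il2 stretch holds 1 CpG, is 60.0% A or T, and carries a TATAAA whose first base lies 31 bases before the start. Only its last 27 bases lie inside the Il2 start-site peak, which extends into the gene. The Art2b stretch holds 3 CpGs and the Ccr4 stretch holds 0. The CpG-rich stretches hold 11 (Unc13b), 9 (Rnf216) and 23 (Yes1). The 6 genes include rises and falls at both kinds of start. They were picked to span both kinds, so this is not a result about the called peaks.

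Total counts in peaks ran from 673398 to 2184717 per library, and the median start-site peak held 30 to 98 counts. Some libraries of the same group were very alike: of 20 within-group pairs, 6 differed by less than the sampling noise (chi-square per degree of freedom 0.925 to 1.36 over all pairs). Such libraries may not be separate samples, so the main counts are also given with them merged into 3 KO and 2 WT sets. Accessible start sites of T cell genes included those of Cd3d, Cd3e, Cd3g, Cd4, Cd5, Cd6, Cd28, Lck, Lat, Thy1 and Il7r, 11 of 13 listed CD4 T cell markers. Of 12 listed B cell markers 1 had a tested start-site peak (Cr2), of 16 myeloid markers 1 (Cebpb), of 11 markers of NK and innate lymphoid cells 1 (Il18r1), and of 15 of erythroid and stromal cells 1 (Pecam1). Of 11 CD8 and cytotoxic markers 4 had one, Cd8b1 among them at 25.99 ± 5.38 in KO and 27.1 ± 2.91 CPM in WT (n = 5 each, SD).

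Of the 3 peak classes, start-site peaks were the broadest and held the most counts per peak. Their median width was 505 bp (interquartile range 367 to 653), against 130 bp for the 13404 promoter peaks beside a start (called flank peaks below) and 147 bp for the 39023 peaks outside promoters. They held between 43.1% and 46.6% of each library's counts in peaks, although they are 14.3% of the peaks. The count rule was applied to start-site peaks alone, and the other 2 classes include weak peaks, so these comparisons are not like for like. Among tested peaks, which passed the same filter in all classes, the median WT level was 49.2 CPM at start sites. It was 12.9 CPM for both flank peaks and peaks outside promoters. The centre of the start-site peaks lay a median of 15 bp upstream of the start (a signed offset of -15 bp, interquartile range -83 to 56.5), and 56.1% of centres lay upstream. RefSeq promoter windows, from 250 bases before to 50 bases after the start, could be matched to 7110 of the genes (80.8%). Of the tested peaks with a window, 5518 (77.8%) were CpG-rich, here a CpG content at least 0.6 of expectation and at least 50% G or C. Of all 32851 RefSeq windows 33.5% were CpG-rich. CpG-rich start-site peaks had a median width of 535 bp and a median level of 55.8 CPM in WT, where CpG-poor ones had 409 bp and 33.7 CPM.

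As a class, start sites differed between the groups by less than the spread between libraries. They held 44.6 ± 1.26% of in-peak counts in KO and 45.2 ± 1.28% in WT (SD, n = 5, two-sided exact permutation p = 0.437, adjusted p = 0.698 over 4 library-level values). The mean log2 CPM of start-site peaks lay above that of flank peaks by 1.49 ± 0.07 in KO and 1.52 ± 0.05 in WT (exact permutation p = 0.484). It lay above that of peaks outside promoters by 1.52 ± 0.07 in KO and 1.55 ± 0.08 in WT (exact permutation p = 0.563). The gap between CpG-poor and CpG-rich start sites was -0.67 ± 0.04 in KO and -0.68 ± 0.05 in WT (exact permutation p = 0.698). The library ranges overlapped in all 4 measures, and the adjusted p was 0.698 for each.

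Few single start sites changed. By edgeR's quasi-likelihood test with Benjamini-Hochberg adjustment over all 34910 tested peaks, 64 of 8780 tested start-site peaks passed at 0.05, 48 higher and 16 lower in KO. Over all tested peaks 3.85% were called, 2.94% higher and 0.911% lower. Of the start-site peaks 0.729% were called, 0.547% higher and 0.182% lower, a smaller share in each direction. The changes were also modest: 5 start sites rose at least 2-fold and 21 at least 1.5-fold, and 5 fell at least 1.5-fold, 0 of them 2-fold. The median fold was 1.47 among rises and 0.706 among falls. The KO libraries did not overlap the WT libraries in 125 start-site peaks (1.42%, 68 with KO above and 57 with KO below), where over all tested peaks the share was 3.96%. Of the called peaks 31 rises and 8 falls were separated in this way.

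DESeq2 called 12 start sites higher and 2 lower, where it called 1.68% of all tested peaks. With libraries alike within sampling noise merged, edgeR called 25 higher and 9 lower. The number of falls was the less stable count: it reached 35 without Sample_2274_WT, 33 without Sample_2275_WT and 29 without the filter on low counts. Rises were 75.0% of the start-site calls in the main fit, 58.6% without the filter, 85.7% with DESeq2 and 63.2% with all libraries thinned to the smallest total. They were 52.1% without Sample_2274_WT and 55.4% without Sample_2275_WT, where rises and falls were close to even. Without adjustment the lean was the other way. Of 610 start-site peaks with an unadjusted edgeR p under 0.05, 269 were higher and 341 lower in KO. The median log2 fold change of all tested start-site peaks was -0.02.

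**Figure D1:**
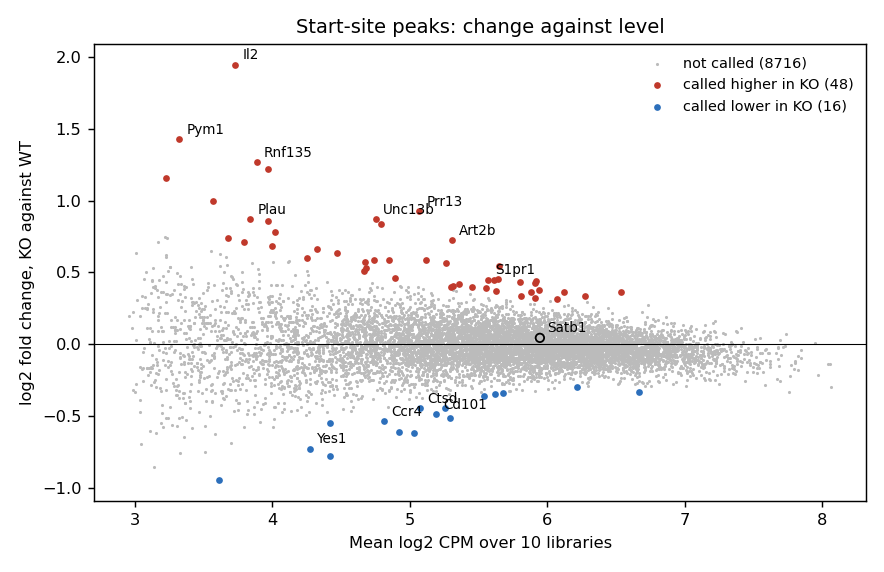
Each point is 1 of the 8780 tested start-site peaks, plotted by its mean log2 CPM over 10 libraries (x axis) and its log2 fold change of KO against WT (y axis), with the 48 higher calls in red and the 16 lower calls in blue. Called rises reach a log2 fold change of 1.95 at Il2, and the Satb1 start site (open circle) lies near 0.

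The measurements at start sites were the more precise ones. The median SE of the log2 fold change was 0.11 for start-site peaks and 0.21 for both flank peaks and peaks outside promoters. For 91.5% of start-site peaks the 95% interval of the fold change lay within 1.5-fold of no change, and for 99.3% within 2-fold. The same held at 1.5-fold for 50.1% of flank peaks and 44.6% of peaks outside promoters. In simulated data the test recovered 28 of 50 start sites changed 1.5-fold and 46 of 50 changed 2-fold, and 6 of 50 changed 1.3-fold.

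Within groups of similar level the start-site share of calls was also the lowest of the 3 classes, except in the highest group. All tested peaks were put into 5 groups by the quintiles of the start-site peaks' mean level. In the lowest group 1.31% of 1756 start-site peaks were called, against 2.40% of 5907 flank peaks and 5.54% of 15098 peaks outside promoters. In the middle group, where the median SE was 0.11 in each class, the shares were 0.740%, 4.76% and 7.18%. In the highest group 2 of 1756 start-site peaks were called (0.114%), 0 of 152 flank peaks and 3 of 193 peaks outside promoters (1.55%). Peaks are not independent replicates, so these shares are a description.

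**Figure D2:**
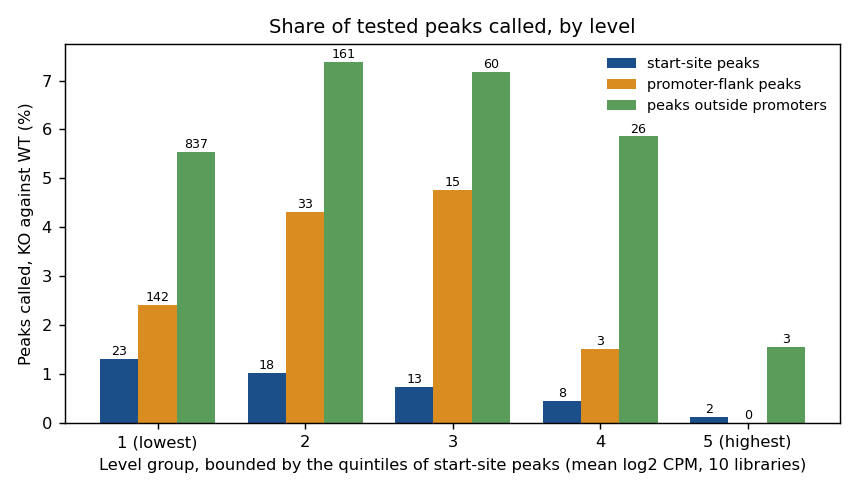
Bars show the percentage of tested peaks called by edgeR in either direction (y axis, from 0) in 5 level groups (x axis), for start-site peaks, flank peaks and peaks outside promoters, with the number called above each bar. The start-site share declines from 1.31% to 0.114% with level and is the lowest of the 3 in the first 4 groups.

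CpG-poor start sites were called at a higher share than CpG-rich ones. Of 1579 CpG-poor start-site peaks 17 rose and 4 fell (1.33%), and of 5518 CpG-rich ones 21 rose and 9 fell (0.544%). The CpG-poor peaks also had a lower median level, and the share called declined with level, so the part of CpG content was not tested. Start-site peaks that hold RefSeq starts on both strands numbered 1130, with 5 rises and 2 falls (0.619%), and those with starts on 1 strand 5929, with 33 rises and 11 falls (0.742%). The narrowest 2 of 5 width groups held 31 of the 48 rises. In these 2 groups 0.797% and 0.960% of peaks rose, against 0.547% of all start-site peaks. They also had the lowest median levels (18.6 and 36.2 CPM in WT), so the part of width was not tested.

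Short sequence motifs were counted on both strands of the 300 base promoter window, and a match describes these letters only. TATAAA was present in 13.6% of all RefSeq windows and in 441 of 7097 start sites with a window (6.21%). Of these 5 rose, Il2 among them, and 0 fell (1.13% called), where 38 rose and 13 fell among all start sites with a window (0.719% called). TGANTCA, the letters of an AP-1 site, was present in 7.81% of all windows and in 269 start sites (3.79%), of which 3 rose and 2 fell (1.86% called). The letters common at housekeeping starts were more frequent at these start sites than over all windows: GGGGCGGGG in 25.1% against 11.4%, CCGGAAGT in 10.2% against 3.89%, and TGACGTCA in 3.78% against 1.79%. Of the start sites with TGACGTCA 0 of 268 were called, and of those with GGGGCGGGG 5 rose and 5 fell (0.562% called). CCAAT was in 40.9% against 37.4%, with 16 rises and 3 falls (0.654% called). With so few calls per motif, these shares are a description only.

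The start site of Satb1, the deleted gene, did not pass the test. Its peak (chr17:51832905-51833388) stood at 57.6, 61.5, 68.3, 62.2 and 58.4 in KO and at 67.4, 51.3, 64.2, 55.0 and 59.4 CPM in WT. The groups overlapped (1.03-fold, log2 fold change 0.04 ± 0.10 SE, edgeR adjusted p = 0.915). Which exons carry the loxP sites is not given in the labels, so this peak does not check the deletion.

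The Il2 start site rose most. Its peak (chr3:37125695-37125981, minus strand, the CpG-poor start with the TATAAA shown above) read 23.2, 26.1, 26.7, 21.3 and 19.5 CPM in the KO libraries. It read 6.52, 6.07, 4.18, 7.15 and 5.4 CPM in the WT libraries. Every KO library thus exceeded every WT library by a wide gap (3.85-fold, log2 fold change 1.95 ± 0.22 SE, edgeR adjusted p = 9.91e-11). With DESeq2 the adjusted p was 1.12e-08 and with the alike libraries merged it was 7.83e-10.

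Rnf135, a ubiquitin ligase that activates the RNA sensor RIG-I, had 26.4, 26.1, 18.3, 16.5 and 18.96 in KO and 7.61, 7.73, 8.88, 9.29 and 8.78 CPM in WT. The groups lay far apart (2.41-fold, edgeR adjusted p = 3.58e-06). Rnf216, another ubiquitin ligase, had 31.7 to 38.9 CPM in KO (median 36.0) and 18.2 to 21.0 CPM in WT (median 20.4), again without overlap (1.79-fold, edgeR adjusted p = 4.44e-06). Unc93b1, which carries Toll-like receptors to endosomes, had 19.4 ± 3.12 in KO and 10.7 ± 2.39 CPM in WT (n = 5 each, SD, 1.81-fold, edgeR adjusted p = 0.00182). Samhd1, an enzyme that degrades deoxynucleotides, had 40.6 ± 5.14 and 27.9 ± 4.97 CPM (n = 5 each, SD, 1.497-fold, edgeR adjusted p = 0.00113). DESeq2 did not call Unc93b1 (adjusted p = 0.0540) or Samhd1 (0.0614).

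Prr13 rose 1.901-fold, at 45.6, 39.6, 36.7, 47.8 and 48.9 in KO and 21.7, 27.6, 18.3, 25.7 and 26.4 CPM in WT (edgeR adjusted p = 5.49e-08). The lowest KO library stood clearly above the highest WT library. Unc13b, which primes vesicles for release, had 33.6, 30.2, 45.01, 31.4 and 35.4 in KO and 19.6, 16.01, 18.8, 17.9 and 21.6 CPM in WT (1.83-fold, edgeR adjusted p = 6.06e-06). Art2b, an ADP-ribosyltransferase on the surface of mouse T cells, had 53.6, 40.7, 53.3, 53.2 and 48.4 in KO and 29.3, 26.5, 39.7, 25.02 and 28.4 CPM in WT. Its highest WT library, Sample_2275_WT, came within 1 CPM of the lowest KO library without crossing it (1.65-fold, edgeR adjusted p = 6.72e-06).

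Pym1, which takes exon junction complexes off messenger RNA, rose 2.69-fold with wide scatter. Its narrow peak of 141 bp had 16.8, 12.5, 5, 21.8 and 13.5 in KO and 6.52, 7.18, 4.7, 5 and 5.4 CPM in WT (edgeR adjusted p = 3.48e-05). Sample_2270_KO, the library with the lowest total, lay among the WT libraries. Plau, the plasminogen activator urokinase, had 17.8 ± 3.11 in KO and 9.78 ± 3.22 CPM in WT (n = 5 each, SD, 1.83-fold, edgeR adjusted p = 0.00338).

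The remaining rises named by size were those of Zcchc18 (1.67-fold, edgeR adjusted p = 0.0316), Pecr, a peroxisomal fatty acid enzyme (1.55-fold, 0.00664), and Dpf3, a subunit of the BAF chromatin remodeller (1.504-fold, 0.00295). DESeq2 called none of these 3, nor Plau (adjusted p 0.0699 to 0.228). The Zcchc18 call also ended without any 1 of Sample_2268_KO, Sample_2269_KO, Sample_2270_KO, Sample_2272_KO, Sample_2273_WT, Sample_2276_WT or Sample_2277_WT (edgeR adjusted p 0.0511 to 0.113), with alike libraries merged (0.0692) and without the 3 lowest totals (0.141). After thinning, Pecr (0.588) and Samhd1 (0.493) were not called. Il2, Rnf135, Prr13, Unc13b, Rnf216, Art2b and Pym1 were called in every alternative that tested them, 7 of the 22 called peaks named by rule. Chosen after their values were seen, the other called rises included the integrin genes Itgb3 (1.504-fold, edgeR adjusted p = 0.00721) and Itga2 (1.38-fold, 0.0331), the Janus kinase gene Tyk2 (1.35-fold, 0.00197), and Smad5, a BMP signal transducer (1.28-fold, 0.0163). Of these 4, DESeq2 called Tyk2 alone, and Tyk2 lost its edgeR call after thinning (0.131). With alike libraries merged Itga2 (0.102) and Smad5 (0.158) were not called. Single libraries also ended calls: Itgb3 without Sample_2272_KO (0.0829) or Sample_2276_WT (0.0635), Smad5 without Sample_2271_KO, Sample_2275_WT or Sample_2277_WT (0.0525 to 0.114), and Itga2 without any 1 of Sample_2271_KO, Sample_2272_KO, Sample_2273_WT, Sample_2274_WT, Sample_2275_WT or Sample_2277_WT (0.0610 to 0.204).

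**Figure D3:**
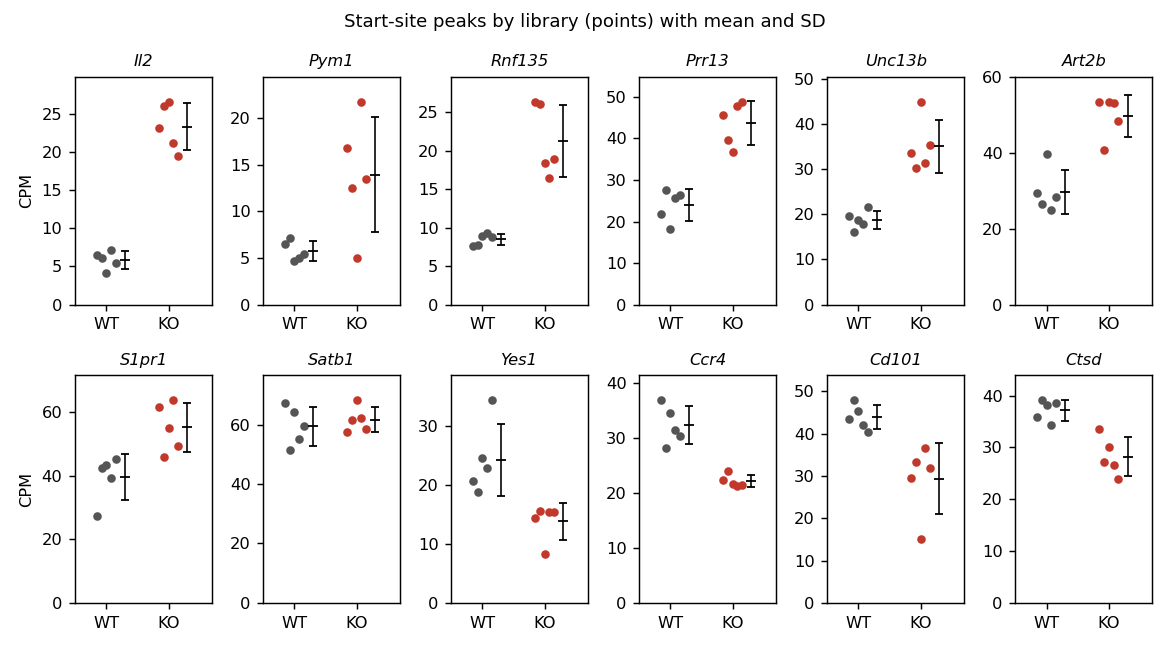
Each panel shows the start-site peak of 1 gene in CPM (y axis, from 0), with a point for each of the 5 WT (grey) and 5 KO (red) libraries and the mean with its SD beside them. Il2 has the widest gap, Satb1 overlaps fully, and in Pym1 1 KO library lies among the WT libraries.

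The falls by the same rule were fewer and smaller. Yes1, a Src family kinase, read 14.4, 15.6, 8.33, 15.4 and 15.5 in KO and 20.6, 18.8, 24.6, 22.9 and 34.4 CPM in WT (0.604-fold, log2 fold change -0.73 ± 0.18 SE, edgeR adjusted p = 0.00431). Its highest WT library was Sample_2277_WT, and without that library the edgeR adjusted p was 0.0541. Ccr4, the receptor for the chemokines CCL17 and CCL22, read 22.4, 24.0, 21.7, 21.3 and 21.5 in KO and 36.9, 28.1, 34.5, 31.5 and 30.4 CPM in WT (0.690-fold, edgeR adjusted p = 0.0120). Its KO libraries were close together and all below WT, though without Sample_2275_WT the adjusted p was 0.0514.

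Cd101, an inhibitory surface protein of T cells, had 29.6, 33.4, 15, 36.7 and 31.9 in KO and 43.5, 48.0, 45.4, 42.2 and 40.5 CPM in WT (0.713-fold, edgeR adjusted p = 0.00647). Its lowest value again came from Sample_2270_KO. Without the 3 libraries with the lowest totals, Sample_2270_KO among them, the Cd101 adjusted p was 0.0591. Ctsd, the lysosomal protease cathepsin D, had 28.2 ± 3.68 in KO and 37.2 ± 2.04 CPM in WT (n = 5 each, SD, 0.734-fold, edgeR adjusted p = 0.0295). Its call ended without any 1 of Sample_2269_KO, Sample_2271_KO, Sample_2272_KO, Sample_2274_WT or Sample_2275_WT (edgeR adjusted p 0.0506 to 0.197). It also ended with alike libraries merged (0.0676) and without the 3 lowest totals (0.05405).

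Cystm1 (0.733-fold, edgeR adjusted p = 0.0140) lost its call without Sample_2268_KO (0.0503) or Sample_2271_KO (0.0622). Cdkl2, a kinase of the cyclin-dependent kinase-like family (0.812-fold, edgeR adjusted p = 0.0499), lost it in most alternatives. It ended without Sample_2268_KO, Sample_2269_KO, Sample_2270_KO, Sample_2271_KO, Sample_2274_WT, Sample_2276_WT or Sample_2277_WT (0.0579 to 0.153), and with alike libraries merged (0.206). DESeq2 called none of these 6 falls (adjusted p 0.0696 to 0.343), and after thinning edgeR called none of them (0.101 to 0.844). The 2 falls that DESeq2 did call lay outside the naming rule. Gm7244, a provisional symbol, fell 0.652-fold (edgeR adjusted p = 0.000604, DESeq2 0.0246). Fam240a, whose groups overlapped, fell 0.582-fold (edgeR adjusted p = 0.00157, DESeq2 0.0481).

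The start sites with the most counts did not pass the test. Dnpep, an aminopeptidase gene whose peak spans 919 bp, had 248 ± 73.2 in KO and 304 ± 60.0 CPM in WT (n = 5 each, SD, edgeR adjusted p = 0.167). It was called lower without Sample_2268_KO (0.0295), without Sample_2275_WT (0.0269) and without the filter on low counts (0.00894). The transcription factor gene Sp1 had 254 ± 29.4 and 280 ± 28.0 CPM (edgeR adjusted p = 0.587), and the repressor gene Cic 251 ± 36.2 and 277 ± 18.6 CPM (0.578). Ripk2, a kinase downstream of NOD receptors, had 240 ± 67.1 and 274 ± 69.4 CPM (edgeR adjusted p = 0.444), and Pnrc1 247 ± 23.2 and 245 ± 16.2 CPM (0.992).

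Within the IL-2 pathway the ligand alone passed. Of 15 tested start sites of IL-2 and common gamma chain signalling 1 rose (Il2) and 0 fell, with a median log2 fold change of 0.03. Over all start-site peaks the median was -0.02, with 0.547% called higher and 0.182% lower. Among the receptor subunits, Il2ra read 29.6, 31.3, 21.7, 36.2 and 27.4 in KO and 23.9, 25.9, 21.9, 20.02 and 22.97 CPM in WT (1.32-fold, edgeR adjusted p = 0.125), and the groups overlapped. Il2rb had means of 28.3 and 25.9 CPM and Il2rg, the common gamma chain, 24.5 and 26.2 CPM. The kinases Jak1 (70.2 and 62.5 CPM) and Jak3 (44.4 and 47.2 CPM) and the transcription factor Stat5b (58.5 and 57.5 CPM) did not pass. Of the inhibitors of the pathway Socs1 had 109.6 and 104.5 CPM and Socs3 51.0 and 44.7 CPM, neither called, though without Sample_2275_WT Socs3 passed (edgeR adjusted p = 0.0478).

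Of 36 listed cytokine and TNF family ligands 8 had a tested start site, and Il2 was again the 1 call. The shares over all start-site peaks were 0.547% called higher and 0.182% lower. Ltb, lymphotoxin beta, had 26.9 ± 7.79 in KO and 36.2 ± 3.56 CPM in WT (n = 5 each, SD, edgeR adjusted p = 0.186; 0.0310 and called lower without Sample_2272_KO), and Csf1 24.0 ± 3.67 and 18.6 ± 5.64 CPM (0.367). Of 27 genes named as SATB1 targets in T cell studies 13 had a tested start site, and Il2 was also the 1 call. That list and the IL-2 list overlap in Il2 and hold genes already studied in such mice, so their counts are not independent of that knowledge.

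Of 29 listed transcription factors of T helper fates 14 had a tested start site. Of these 14, 0 were called with edgeR, DESeq2 or limma-voom, and 0 had an unadjusted p under 0.05 with edgeR. Over all 8780 tested start-site peaks edgeR called 0.729%, and 610 had an unadjusted p under 0.05. A list this short would hold few of either at those shares. Their log2 fold changes ran from -0.20 (Runx3) to 0.38 (Ikzf1). Gata3, the Th2 factor, had 18.2 and 18.0 CPM, Stat3, which transmits IL-6 and IL-23 signals to Th17 genes, 151 and 149 CPM, and Bcl6, the Tfh repressor, 75.0 and 69.1 CPM (KO and WT means).

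T cell receptor signalling showed 0 calls among 26 tested start sites with edgeR, DESeq2 or limma-voom, where edgeR called 0.729% of all start-site peaks. At an unadjusted edgeR p under 0.05 there were 3, where all start-site peaks held 610 of 8780. The log2 fold changes ran from -0.39 to 0.36, with a median of -0.05. The kinase gene Lck had 25.6 ± 3.15 in KO and 33.7 ± 4.50 CPM in WT (n = 5 each, SD, edgeR adjusted p = 0.226).

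Of 27 listed genes of naive and quiescent T cells 20 had a tested start site, of which S1pr1 rose and 0 fell. The shares over all start-site peaks were 0.547% called higher and 0.182% lower. A single call describes S1pr1 and not the list. S1pr1, the sphingosine-1-phosphate receptor that lets T cells leave lymph nodes, read 61.6, 45.9, 55.0, 63.8 and 49.4 in KO and 27.2, 42.5, 43.4, 39.3 and 45.3 CPM in WT. Its lowest KO library lay just above its highest WT library (1.37-fold, edgeR adjusted p = 0.00511). The call ended without Sample_2271_KO (0.0938), with alike libraries merged (0.0601), after thinning (0.202) and with DESeq2 (0.125). Klf2, Foxo1, Ccr7 and the other tested genes of the list did not pass.

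In the activation and memory list 26 of 42 genes had a tested start site, of which 0 rose and Ccr4 fell. Of the 26 log2 fold changes 18 lay below 0 (median -0.05). The median over all start-site peaks was also below 0 (-0.02), and 0.547% of them were called higher and 0.182% lower. Cd69, an early activation marker, had 35.8 ± 6.71 in KO and 29.2 ± 5.17 CPM in WT (n = 5 each, SD, edgeR adjusted p = 0.228). The immediate early genes Fos, Jun, Junb and Egr1 were not called, at log2 fold changes of 0.03, -0.04, 0.01 and -0.08. Among 26 chromatin organisers and SATB1 partners Baz1a, a subunit of the ACF and CHRAC remodellers, rose from 11.5 ± 1.92 in WT to 19.7 ± 5.26 CPM in KO (n = 5 each, SD, 1.72-fold, edgeR adjusted p = 0.00756). One KO library, Sample_2268_KO at 11.2 CPM, lay among the WT libraries. The Baz1a call ended without Sample_2271_KO (0.111), without Sample_2274_WT (0.0566), with the 3 lowest totals left out (0.0532) and with DESeq2 (0.120). Ctcf had 164 and 162 CPM, Smc3 153 and 145 CPM, and Smarca4 85.3 and 94.99 CPM (KO and WT means), none called.

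Tamoxifen acts through oestrogen receptors, and a short list of 15 oestrogen responsive genes had 6 tested start sites. Of these Ctsd fell and 0 rose, where 0.182% of all start-site peaks were called lower and 0.547% higher. Celsr2 had 17.4 ± 4.95 in KO and 13.7 ± 3.38 CPM in WT (n = 5 each, SD, edgeR adjusted p = 0.340). The part of tamoxifen in these values was not tested. In the interferon list 0 of 21 were called with edgeR, DESeq2 or limma-voom and 0 had an unadjusted edgeR p under 0.05. Over all 8780 tested start-site peaks edgeR called 0.729%, and 610 had such a p. The log2 fold changes of the list ran from -0.31 (Gbp7) to 0.24.

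The lists of housekeeping machinery held few calls, as did start-site peaks in general (0.729% called). Of 62 general transcription and Mediator genes, 72 cytoplasmic and 62 mitochondrial ribosomal protein genes, 71 respiratory chain genes, 41 cell cycle genes, 13 BCL-2 family genes, 15 housekeeping genes and 8 histone genes, 0 were called by any of the 3 tools (edgeR, limma-voom, DESeq2). With edgeR and an unadjusted p under 0.05 there were 4, 3, 3, 4, 4, 2, 0 and 0 of them, in that order, where all start-site peaks held 610 of 8780. Of 39 proteasome genes 1 rose, Psme2, a subunit of the interferon-inducible proteasome activator, from 34.7 ± 4.43 to 45.8 ± 4.54 CPM (n = 5 each, SD, 1.33-fold, edgeR adjusted p = 0.0171). The Psme2 call ended without Sample_2271_KO, Sample_2272_KO or Sample_2273_WT (edgeR adjusted p 0.0637 to 0.106), with alike libraries merged (0.112), without the 3 lowest totals (0.06996), after thinning (0.444) and with DESeq2 (0.278). Near the threshold, Gtf2h2, a subunit of the repair and transcription factor TFIIH, had 47.4 ± 8.17 and 38.1 ± 6.74 CPM (edgeR adjusted p = 0.0745). It passed without Sample_2268_KO (0.0264) or without Sample_2273_WT (0.0258). Rpl39 passed without Sample_2273_WT (0.0405) and Cdk4 without Sample_2275_WT (0.0441).

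**Figure D4:**
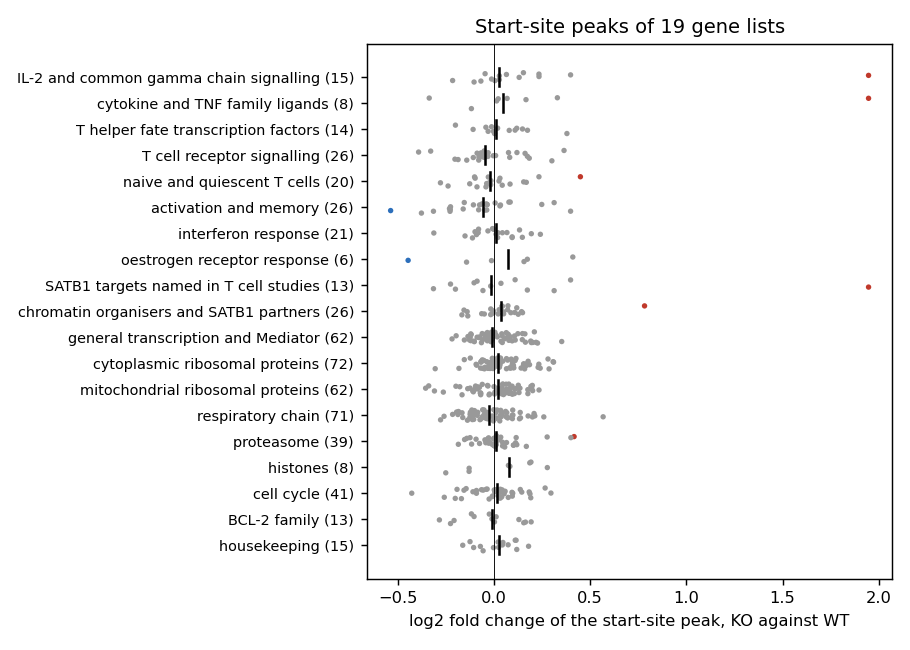
Each point is a tested start-site peak of 1 gene, placed by its log2 fold change of KO against WT (x axis) in the row of its list (number tested in parentheses), with higher calls in red, lower calls in blue and the list's median as a black bar. The 19 medians lie between -0.05 and 0.08, and most coloured points are single genes such as Il2 and Ccr4.

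Called peaks beside a start were set against the start of the same gene. Among genes with a tested start site, 121 flank peaks of 120 genes were called, 92 higher and 29 lower. The start site of the same gene was called in the same direction for 4 of them, in the other direction for 2 and not called for 115. The start was thus called beside 4.96% of the called flank peaks, where 28 of all 3308 start sites with a tested flank peak were called (0.846%). The 92 higher flank peaks had a median log2 fold change of 0.85, and the start sites of their genes a median of -0.01. The start site moved with the sign of the flank peak in 61 of the 121. At Il2 both rose: the flank peak 227 bp upstream went from 3.28 ± 0.984 to 29.3 ± 6.70 CPM (n = 5 each, SD, 8.92-fold, edgeR adjusted p = 4.88e-18).

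The Prr13 and Yes1 promoters were called in opposite directions at the start and beside it. The Prr13 flank peak at -657 bp fell from 19.99 ± 4.38 in WT to 10.9 ± 2.24 CPM in KO (n = 5 each, SD, edgeR adjusted p = 0.00282), where its start rose. The Yes1 flank peak at -600 bp rose from 9.37 ± 2.93 to 15.9 ± 6.67 CPM (edgeR adjusted p = 0.0137), where its start fell. Yes1 is the weaker case: its start call ended with DESeq2, after thinning and without Sample_2277_WT, where that of Prr13 held. In the within-gene tests described below limma called the Yes1 difference (adjusted p = 0.00279) and edgeR did not. The calls of both flank peaks are given from the main fit alone.

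**Figure D5:**
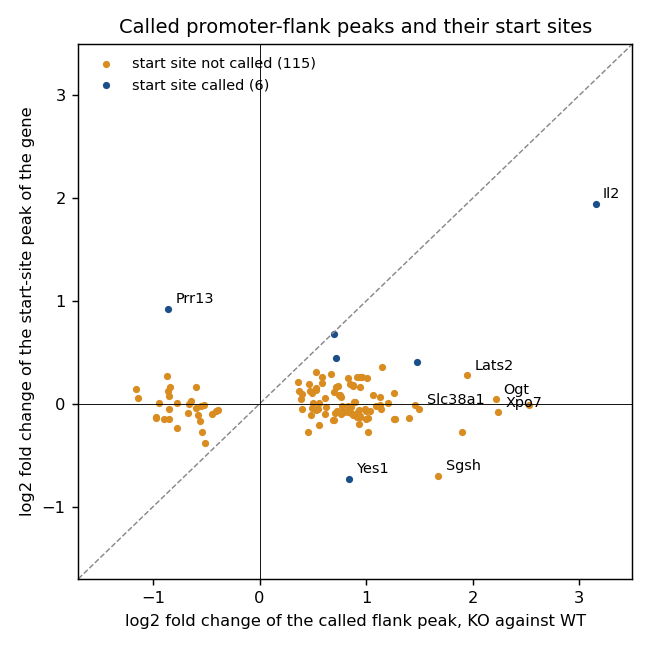
Each of the 121 called flank peaks is plotted by its own log2 fold change of KO against WT (x axis) and that of the start-site peak of its gene (y axis), with the 6 called start sites in blue, the 115 others in orange and a dashed line of equal change. Most points lie along 0 on the y axis, with Il2 at the upper right and Prr13 and Yes1 in opposite quadrants.

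Whether a start site changed by another amount than the gene's other promoter peaks was tested directly, within each gene. With edgeR (diffSpliceDGE) 4 of 3308 start sites differed, a smaller share than over all promoter peaks tested this way (31 of 9301, 0.333%). By the same test 61 start sites had an unadjusted p under 0.05. In simulated data the edgeR test recovered few differences (7 of 19 at 4-fold), and limma's diffSplice recovered more (19 of 19). At 2-fold edgeR recovered 2 of 15 and limma 8 of 15, and at 1.5-fold each recovered 0 of 21. False calls of the 2 tests in these simulated data are not reported here. With limma 39 of 3308 start sites differed, all 4 of edgeR among them. That share was close to the share over all tested promoter peaks (118 of 9301, 1.27%). Where a gene has 1 tested flank peak, its start and its flank are compared with each other, so a call may reflect a change at either. In 29 of the 39 the start site had the lower change of KO against WT, in 10 the higher, and 29 of the 39 start sites were not called on their own.

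Slc38a1, a glutamine transporter gene, gave the clearest case. Its start site read 24.0, 16.7, 25, 19.7 and 20.5 in KO and 19.6, 24.3, 21.9, 22.9 and 17.6 CPM in WT, with full overlap (edgeR adjusted p = 0.945). Its flank peak 1877 bp into the gene rose from 25.5 ± 4.11 to 73.2 ± 5.53 CPM (n = 5 each, SD, 2.83-fold, edgeR adjusted p = 2.86e-18). The start differed from the flank peak by -1.55 on the log2 scale with limma (adjusted p = 4.45e-08), and the edgeR test within the gene called it too (adjusted p = 4.23e-06). Sgsh, a lysosomal sulfatase gene, had a start site at 5.55 ± 2.04 in KO and 8.83 ± 1.298 CPM in WT and a flank peak that rose from 7.30 ± 3.303 to 26.2 ± 3.18 CPM (edgeR adjusted p of the difference 9.01e-05). Prr13 and Pym1 were the 2 start sites that rose relative to their flank peaks with edgeR (adjusted p of the difference 0.00663 and 0.00754). The Pym1 flank peak stood at 28.5 ± 1.99 and 28.0 ± 1.01 CPM.

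Further genes whose start differed from its flanks in the limma test are named after their values were seen. Lats2, a kinase of the Hippo pathway, had 49.8 ± 5.15 and 40.1 ± 3.00 CPM at the start (KO and WT) and 24.4 ± 1.83 and 5.95 ± 2.65 CPM at a flank peak at -413 bp (limma adjusted p of the difference 2.37e-06). Ogt, which attaches the sugar GlcNAc to proteins, had 30.9 ± 4.01 and 29.4 ± 5.60 CPM at the start and 18.2 ± 4.34 and 3.57 ± 1.45 CPM at a flank peak at -899 bp (limma adjusted p 4.25e-06). Tnks2, a tankyrase, had 60.5 ± 7.73 and 62.3 ± 9.203 CPM at the start and 43.9 ± 7.65 and 18.5 ± 2.74 CPM at a flank peak at -484 bp (3.36e-06). In these 3 genes the flank peak rose and the start site did not pass the test.

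Called peaks were also counted around the called start sites. Of 34 tested flank peaks of genes with a called rise at the start 4 were higher (11.8%), and of their 99 peaks outside promoters 9 (9.09%). For genes with a called fall at the start, 1 of 8 flank peaks (12.5%) and 1 of 28 peaks outside promoters (3.57%) were higher, and 0 of either were lower. For genes whose start site was not called the shares higher were 1.92% of 4542 and 4.55% of 9835. These are peaks assigned to the nearest gene, counted without a test.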

How the data were processed

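The authors deposited raw counts of reads for 1 shared set of 61581 peaks in 10 libraries, and an annotation giving each peak's position, class and nearest gene (build mm10). Per the submitters' processing notes, Trimmomatic 0.36, Bowtie2 2.3.5, Picard, SAMtools 1.9, MACS2 2.1.2 and ChIPseeker 1.18.0 were among the tools. Handling of duplicates, a shift of reads to the cut site and pooling for peak calling are not given in the sources used here. Duplicate removal would cap counts of the densest start sites. Single reads of 75 bp carry no molecular identifiers.

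All counts, mitochondrial peaks included, were fitted in R 4.3.3 with edgeR 4.0.16 (TMM, filterByExpr by group, quasi-likelihood test, no covariate), with adjustment over all tested peaks and a threshold of 0.05. CPM are counts scaled to the TMM-adjusted in-peak total. Groups do not overlap where this holds on log2 CPM with a prior count of 2. Each SE follows from the test statistic and is approximate. Scripts were tested on simulated data. DESeq2 1.42.0, limma-voom 3.58.1, other filters and scalings, thinning, merged and left-out libraries were alternatives. Library-level values used all 252 assignments of 5 libraries (smallest possible p 0.00794).

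Named peaks are Satb1, Il2, the 12 largest separated changes per direction without provisional symbols, the 5 highest levels, up to 3 per list by adjusted p, and up to 6 within-gene calls. Only 6 falls qualified. Some peaks that the rule names are not reported here. Of 428 start-site peaks without a deposited symbol RefSeq named 426. The annotation gives 1 start per gene, so alternative starts of 1 gene were not compared. Peaks, lists and rules were chosen with earlier results of these data known.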

Additional observations from a re-analysis of the deposited data

Results flagged for a closer look

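In 6 of 90 groups of 5 libraries, 1 library stood apart from the other 4 by Dixon's criterion, which chance meets in about 1 of 20 groups. The groups came from 22 called and 19 uncalled named start-site peaks and from the 4 library-level values. Yes1 had 8.33 CPM in Sample_2270_KO, where the other KO libraries had 14.4 to 15.6 CPM. Cdkl2 had 48.3 CPM in the same library, where the others had 66.4 to 73.4 CPM. Sample_2270_KO has the lowest total count. Pecr had 20 CPM in Sample_2268_KO against 25.9 to 28.3 CPM, and Zcchc18 12.2 CPM in Sample_2271_KO against 15.6 to 16.7 CPM. Among WT libraries Gtf2h2 had 50.0 CPM in Sample_2273_WT against 33.8 to 37.0 CPM, and Sdha 41.9 CPM in Sample_2274_WT against 49.6 to 52.7 CPM.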

How the results depend on the processing

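No paired analysis was possible because the running numbers of the KO and WT libraries are not shared between the groups. Start sites called higher numbered 48 in the main fit, 12 with DESeq2, 12 after thinning and 25 with alike libraries merged, and 32 to 44 with each library left out. Those called lower numbered 16, and 2 with DESeq2, 29 without a count filter, 7 after thinning, 9 with alike libraries merged and 12 to 35 with each library left out (35 without Sample_2274_WT, 33 without Sample_2275_WT). Of the 48 and 16 calls, DESeq2 shared 12 and 2, and the merged fit 25 and 9. Fewer counts or samples enter the thinned and merged fits; otherwise the cause was not tested. Start sites differing from their flanks numbered 4 with edgeR (2 to 6 with each library left out, 2 without Sample_2271_KO) and 39 with limma. In an alternative chosen after seeing the data, limma gave 44, 34, 35, 29 and 27 without each KO library and 30, 37, 37, 23 and 31 without each WT library, in the order of their numbers. Library-level differences, none past the threshold, changed sign without single libraries. That of start sites against peaks outside promoters ranged from -0.0508 to 0.000432 (Sample_2271_KO), and that of CpG-poor against CpG-rich from -0.00336 to 0.0251 (below 0 without Sample_2271_KO, -0.00322, Sample_2273_WT, or Sample_2276_WT, -0.000376). The log2 fold change of Satb1 was -0.048 after thinning and -0.0234 to 0.0809 with each library left out, and that of Slc38a1 was 0.186 after thinning. That of Pnrc1 was -0.0132 without a count filter, -0.0100 without the 3 lowest totals, -0.0117 with merging and -0.0379 to 0.0415 with each library left out. None of these 3 was called in any alternative. Of 22 called named peaks 7 kept the call in all alternatives that tested them, 15 lost it with DESeq2, 10 after thinning, 5 with merging and 9 without some 1 library. Of 19 uncalled ones (Satb1, the highest levels, within-gene calls and the lowest p of lists without a call) 15 were called in none. Of 71 further uncalled start sites named by the rule or in the text 68 were called in none, Ltb, Socs3 and Psme4 in some, and 25 changed sign in some. The parts of depth, library number and spread in what could be detected were not separated.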
